A study of Mus musculus with 4 samples.

Results

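Transcript levels of 10 genes used as surface, progenitor or oncofetal markers of liver tumours were followed in bulk RNA sequencing of mouse liver. The genes were picked by symbol (Cd44, Epcam, Prom1, Cd24a, Tspan8, Gpc3, Dlk1, Spp1, Golm1 and Akr1b8), and all 10 are among the 25793 genes listed in each count table. The tumour group holds 2 libraries (tumours 1 and 2) of liver tumour from mice labelled heterozygous for beta-2 spectrin and for SMAD3 (beta-2SP+/- ; SMAD3+/-), a pair of genes of the TGF-beta pathway. Normal liver is represented by 1 table labelled with the same double heterozygous genotype and 1 labelled wild type. Age, sex, strain and the number of animals are not given in the labels. The submitters' short descriptions differ from these labels. They carry the word Tcell, with the prefix Elf or Smad, for the tumours and hepatocytes for both normal tables. The tumours are grouped here without regard to the prefix. With 1 library per tumour, any bearing of the prefix cannot be told apart from other differences between the tumours, and it was not tested. The groups used here follow the genotype and disease labels.

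Gene counts totalled 11049931 in tumour 1 and 13295216 in tumour 2, against 15950426 in the double heterozygous normal table and 18448621 in the wild type one. The normal tables differed in the share of alignments that were not unique, 51.5% in the double heterozygous table and 30.7% in the wild type one. At low counts, however, they were closer to each other than separate libraries would be. Of the 2632 genes averaging 1 to 5 counts, 56.8% had the same count in both, where 22% would be expected from independent libraries of these depths, against 13.1% for the tumours, where 21.5% would be expected. Because low counts differed by less than the sampling noise, both normal tables were averaged and counted as 1 sample. Each comparison below therefore sets 2 tumours against 1 normal library. Its p-values rest on the spread between the tumours, in part pooled over all genes and not a gene's own. The labels do not tie the tumours to separate animals.

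The markers belong to several kinds of molecule. CD44 is a surface receptor for the matrix polysaccharide hyaluronan and also binds the secreted phosphoprotein osteopontin, the product of Spp1. EpCAM is an adhesion molecule of epithelia, prominin-1 (CD133, Prom1) a membrane protein of surface protrusions, CD24 a small lipid-anchored glycoprotein and tetraspanin-8 a member of a family that organises other membrane proteins. Adult hepatocytes make little of these molecules, whereas bile duct cells and liver progenitor cells carry several of them. Glypican-3 and the Notch-related protein DLK1 are made by fetal hepatoblasts and lost after birth, and glypican-3 returns in many human hepatocellular carcinomas.

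The sequences just upstream of 3 of these genes are shown because their transcripts behaved differently. Cd44 and Spp1 stood at nearly equal levels in both tumours, and Epcam differed between the tumours more than the other genes. Each run holds the 250 bases before the RefSeq start (build GRCm38.p6, not the build of the counts), read 5′ to 3′ on the gene's strand, and none overlaps an annotated exon. Capitals mark a CCAAT box or a GC box on either strand.
Cd44, chr2:102901666-102901915, minus strand: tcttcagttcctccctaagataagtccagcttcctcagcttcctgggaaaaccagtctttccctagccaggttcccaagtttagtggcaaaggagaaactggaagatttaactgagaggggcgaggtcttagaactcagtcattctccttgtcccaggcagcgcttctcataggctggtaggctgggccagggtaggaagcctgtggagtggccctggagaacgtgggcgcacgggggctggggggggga
Spp1, chr5:104434861-104435110, plus strand: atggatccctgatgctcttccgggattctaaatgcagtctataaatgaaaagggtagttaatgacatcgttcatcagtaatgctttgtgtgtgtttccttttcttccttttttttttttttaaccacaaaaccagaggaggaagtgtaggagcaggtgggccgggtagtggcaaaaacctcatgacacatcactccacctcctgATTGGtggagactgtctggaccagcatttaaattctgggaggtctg
Epcam, chr17:87635729-87635978, plus strand: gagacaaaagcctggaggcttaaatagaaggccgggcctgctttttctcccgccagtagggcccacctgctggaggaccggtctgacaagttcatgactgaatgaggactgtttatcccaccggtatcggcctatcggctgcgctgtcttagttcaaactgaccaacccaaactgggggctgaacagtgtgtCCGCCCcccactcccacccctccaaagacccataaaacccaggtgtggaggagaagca

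Of the 10 genes, 9 had a RefSeq promoter entry, with 11 starts between them. The CCAAT box was searched as CCAAT, the GC box as GGGCGG and the AP-1 site as TGANTCA, each on both strands, and no match overlapped a match of another motif. The Spp1 window held 1 CCAAT box and 3 CpG dinucleotides, the Epcam window 1 GC box and 8 CpG, and the Cd44 window none of the 3 motifs and 5 CpG, beside a median of 6 CpG over all 32851 windows. Of the 11 windows, 4 held a CCAAT box and 5 a GC box, and these motifs occurred in 33.8% and 32.7% of all windows. An AP-1 match stood in 2 of the 11, both upstream of Prom1, against 6.75% of all windows.

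Most of the markers were far more abundant in the tumours. In the test over all genes, 5 of the 10 were called higher in the tumours at an adjusted p under 0.05 (Cd44, Tspan8, Spp1, Golm1 and Akr1b8), where 2.23% of the 14468 genes tested were called higher. Another 3 (Cd24a, Prom1 and Epcam) were tested and not called, and Gpc3 and Dlk1 had too few counts in every library to be tested. By edgeR, 0 were called lower, against 5.19% of all genes. Without adjustment, 7 had p under 0.05 with higher and 0 with lower values in the tumours, against 1810 and 2237 of all 14468. DESeq2 gave the same split, 7 and 0, against 1641 and 1727 over all genes. In 7 of the 8 tested genes both tumours lay above normal liver, as in 43.1% of all genes tested. A gene that is nearly silent in normal liver could enter the test only through its tumour counts, so the number tested is no evidence in itself. Apart from Spp1, the markers had at most 48 counts in a normal table, which left little room for a lower call. The 0 lower calls are therefore no evidence in themselves either. The markers were also chosen with earlier results of these data known. In bulk RNA, fewer cells of a type and less RNA per cell cannot be told apart. The labels name liver tumour and normal liver while the descriptions name cells, and whether the samples are whole tissue was not tested.

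**Figure D1:**
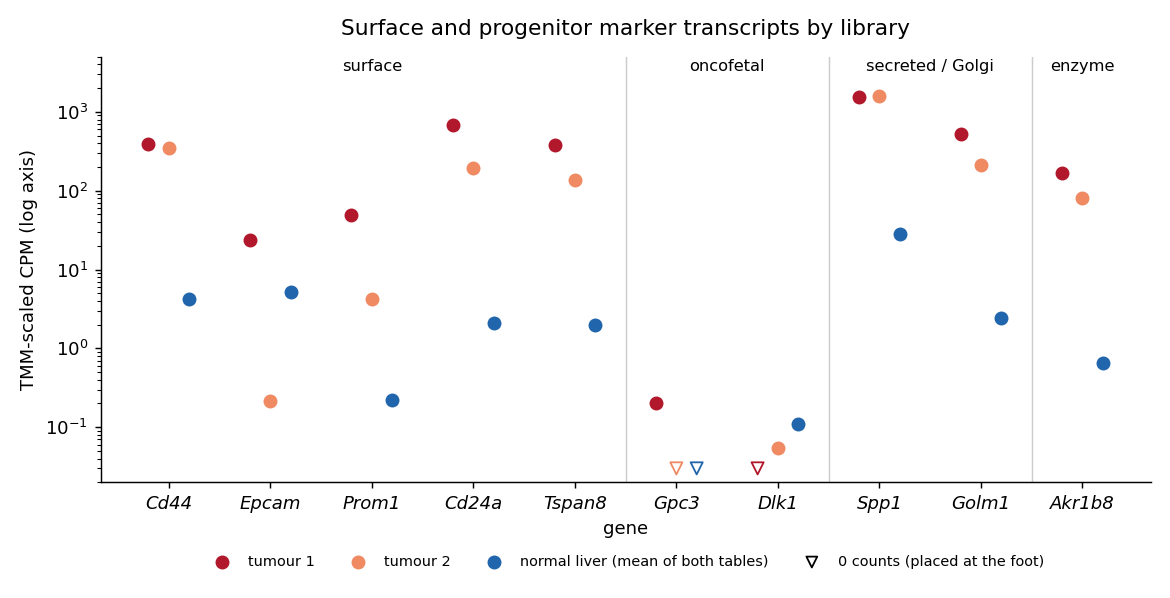
TMM-scaled CPM (log axis) of the 10 genes in tumour 1, tumour 2 and normal liver (mean of both tables), grouped by the kind of molecule. Both tumours lie above normal liver for 7 genes, Epcam lies above it in tumour 1 and below it in tumour 2, and Gpc3 and Dlk1 lie near 0 in all libraries.

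Among the surface molecules, the hyaluronan receptor gene Cd44 gave the most even picture. It had 5725 and 6405 counts in tumours 1 and 2, against 39 in the double heterozygous normal table and 38 in the wild type one. As CPM, counts scaled to a common library size by TMM, that was 386 and 344 in the tumours against 4.17 in normal liver. The tumours thus lay close together, far above normal liver. Cd44 rose 87.4-fold (log2 fold change 6.45, SE 0.82, edgeR adjusted p = 0.0294), and its call was kept under each of the 8 alternative settings with a test.

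Tspan8, the tetraspanin gene, had 5570 and 2574 counts in tumours 1 and 2, against 17 and 20 in the double heterozygous and wild type normal tables. Scaled, the tumours stood at 375 and 138 CPM, against 1.97 CPM in normal liver, again with both tumours far above. Its log2 fold change of 7.02 (SE 1.19) passed the test at an edgeR adjusted p of 0.0475, close to the threshold.

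Cd24a, which encodes the anchored glycoprotein CD24, had the highest count of the surface genes in tumour 1. It had 9971 and 3623 counts in tumours 1 and 2, against 18 and 20 in the double heterozygous and wild type normal tables. Scaled, that was 672 and 194 CPM in the tumours against 2.08 CPM in normal liver. Both tumours were high, but the gap between them was wide, and the log2 fold change of 7.69 (SE 1.42) missed the threshold (edgeR adjusted p = 0.0545). Of the 8 alternative settings, 7 placed it under the threshold, with adjusted p from 3.01e-12 under DESeq2 to 0.051 under upper quartile scaling.

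Prom1, the gene of prominin-1, had 736 and 79 counts in tumours 1 and 2, against 1 and 3 in the double heterozygous and wild type normal tables. Tumour 1 was thus well above tumour 2, and both were above normal liver. Counting error alone puts the ratio to normal liver between 62.4 and 1871 for tumour 1 and between 5.18 and 162 for tumour 2 (exact 95% intervals). The log2 fold change was 6.88 (SE 2.29, edgeR adjusted p = 0.152).

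Epcam, the epithelial adhesion gene, was split. It had 356 and 4 counts in tumours 1 and 2, against 46 and 48 in the double heterozygous and wild type normal tables. In CPM it stood at 24.0 in tumour 1 and 0.215 in tumour 2, with normal liver at 5.15 between them. Tumour 1 was 4.66 times normal liver (exact 95% interval for counting error 3.43 to 6.45) and tumour 2 was 0.0417 times normal liver (0.0109 to 0.114). The log2 fold change of the tumours as a group was 1.23 (SE 2.43, edgeR adjusted p = 0.766).

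The oncofetal pair was almost silent. Gpc3, the glypican gene, had 3 and 0 counts in tumours 1 and 2, against 0 and 1 in the double heterozygous and wild type normal tables. Dlk1 had 0 and 1 counts in tumours 1 and 2, against 1 and 1. A count of 0 allows up to 3 counts, which is 0.202 CPM in tumour 1, 0.161 CPM in tumour 2 and 0.329 CPM in the mean normal library. No difference was detectable at this depth for either gene, and no fold is given.

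Spp1, the gene of the secreted CD44 ligand osteopontin, was the most abundant of the 10 in every library, per length as well. It had 22654 and 29529 counts in tumours 1 and 2, against 254 and 266 in the double heterozygous and wild type normal tables. At 1526 and 1585 CPM the tumours were nearly equal, and normal liver stood at 28.5 CPM. Spp1 rose 54.6-fold (log2 fold change 5.77, SE 0.96, edgeR adjusted p = 0.0462). It was the smallest rise among the called genes. Of its 31-base words, 14.3% also occur in Gm42793, a gene model not listed in the count tables.

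Golm1, which encodes a membrane protein of the Golgi apparatus, had 7717 and 3989 counts in tumours 1 and 2, against 21 and 24 in the double heterozygous and wild type normal tables. Scaled, the tumours stood at 520 and 214 CPM, against 2.41 CPM in normal liver, so both tumours lay far above. Its log2 fold change was 7.24 (SE 1.16, edgeR adjusted p = 0.0431). Of its 31-base words, 28.5% are shared with Naa35, and reads from that stretch cannot be assigned with certainty. Naa35 itself had 361 and 663 counts in tumours 1 and 2, against 349 and 451, well under the tumour counts of Golm1.

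Akr1b8, an aldo-keto reductase that reduces reactive aldehydes, was the only enzyme among the 10. It had 2466 and 1499 counts in tumours 1 and 2, against 4 and 8 in the double heterozygous and wild type normal tables. It was at 166 and 80.5 CPM in the tumours against 0.658 CPM in normal liver, and tumour 1 was the higher of the tumours. Akr1b8 rose 185-fold (log2 fold change 7.53, SE 1.06, edgeR adjusted p = 0.035), the largest fitted rise among the called genes. Of its 31-base words, 6.41% are shared with Akr1b10 of the same family and 9.48% with any other gene.

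**Figure D2:**
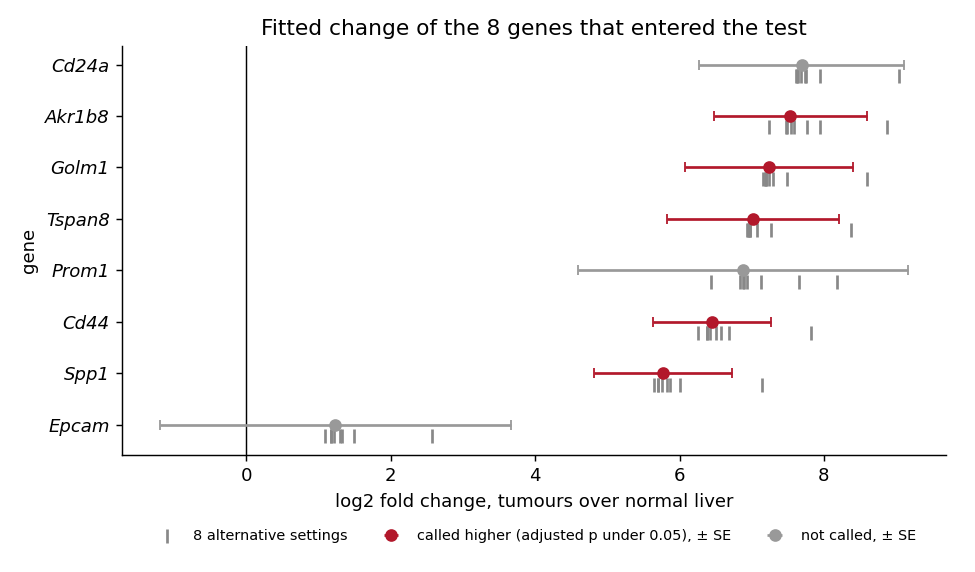
Log2 fold change of tumours over normal liver for the 8 genes tested, with bars of 1 SE. Red points were called higher and grey points were not, and grey ticks give the values under the 8 alternative settings. Only Epcam has an SE that spans 0.

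The tested markers other than Epcam moved by similar amounts on the log2 scale, between 5.77 and 7.69. These values stood at percentiles 92.2 to 96.7 of the log2 fold changes of all genes tested, whose median was 0.19. Epcam stood at percentile 69.1. Counted from the largest fitted rise, Cd24a ranked at 480, Cd44 at 857 and Spp1 at 1125 of the 14468 genes.

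Between the tumours, 6 of the 8 compared markers were over 2-fold higher in tumour 1, and 0 were over 2-fold lower. Over all 9626 genes with at least 10 CPM in either tumour, 12.1% were over 2-fold higher in tumour 1. The share over 2-fold lower was not counted, so the 0 cannot be set against all genes. With the threshold at 4-fold, 2 markers were higher in tumour 1 and 0 lower, against 3.19% and 6.78% of all genes. This sets 1 library against 1, so there is no replicate check and no test, and intervals cover counting error only. Epcam was 112 times higher in tumour 1 than in tumour 2 (exact 95% interval 43.3 to 412), at percentile 99.6 of all genes compared. Prom1 was 11.7 times higher (9.26 to 14.9), at percentile 98.8. Epcam (24.0 and 0.215 CPM in tumours 1 and 2) and Prom1 (49.6 and 4.24 CPM) reached 10 CPM in tumour 1 alone. They entered this comparison only through the tumour where they were high, so the 4-fold count and these percentiles are no evidence in themselves.

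The other markers differed less between the tumours. Cd24a was 3.45 times higher in tumour 1 than in tumour 2 (3.33 to 3.59), Tspan8 2.72 times (2.59 to 2.85), Golm1 2.43 times (2.34 to 2.52) and Akr1b8 2.06 times (1.94 to 2.2). Cd44 was 1.12 times higher in tumour 1 (1.08 to 1.16), and Spp1 stood at 0.963 of its tumour 2 level (0.946 to 0.98). The receptor and its ligand were therefore the pair whose levels differed least between the tumours.

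**Figure D3:**
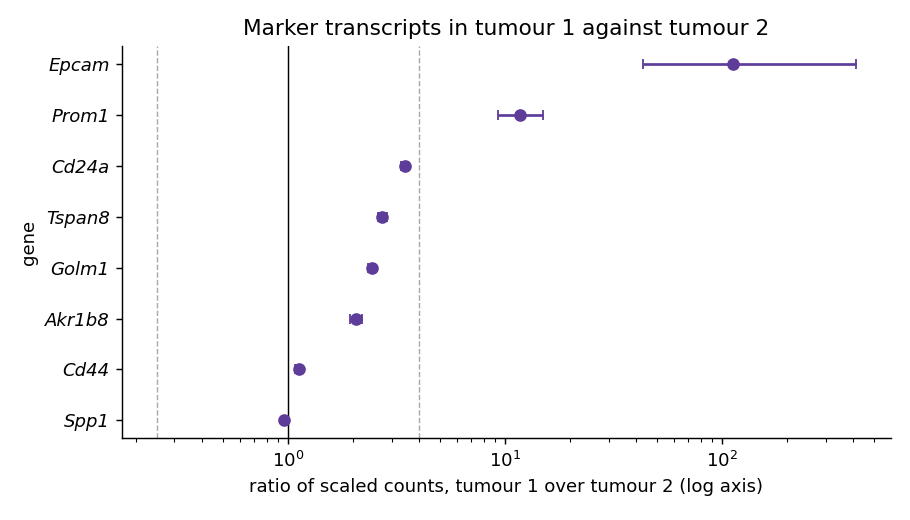
Ratio of scaled counts in tumour 1 over tumour 2 (log axis) for the 8 markers with at least 10 CPM in either tumour, with exact 95% intervals for counting error. Dashed lines mark 4-fold in either direction, and Epcam and Prom1 lie beyond it at 112 and 11.7.

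To compare levels between genes, CPM were divided by exonic length from GENCODE M21, an annotation newer than that of the counts. Per kilobase (kb), Spp1 stood first in each library, at 926 and 962 CPM per kb in tumours 1 and 2 against 17.3 in normal liver. In tumour 1 it was followed by Cd24a at 260 and Tspan8 at 220 CPM per kb, then Golm1 at 118 and Akr1b8 at 111, Cd44 at 57.0, Epcam at 10.9 and Prom1 at 6.91. In tumour 2 Tspan8 at 81.1 CPM per kb lay just ahead of Cd24a at 75.2, and Akr1b8 at 53.7, Cd44 at 50.8 and Golm1 at 48.4 lay close together. Prom1 at 0.591 and Epcam at 0.0979 CPM per kb came after them. In normal liver the order was different, since Epcam at 2.35 CPM per kb stood next after Spp1, ahead of Tspan8 at 1.16, and Prom1 stood at 0.0305. Neighbours in these orders come from single libraries and were not tested against each other.

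Between the normal tables the markers hardly differed. Spp1 had 254 counts in the double heterozygous and 266 in the wild type table, a difference of -12, and every other marker differed by at most 4 counts. Since the tables share counts beyond sampling, this closeness says nothing of the genotype.

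Around CD44 and osteopontin, 25 genes of hyaluronan metabolism, CD44 anchoring, shedding and splicing, and osteopontin receptors were examined. Of 22 tested, 2 rose and 2 fell by edgeR, and their median log2 fold change was 0.49. Without adjustment 6 were higher and 6 lower, DESeq2 called 6 and 5, and edgeR with the normal tables as separate libraries called 8 and 6. The hyaluronan-binding proteoglycan gene Vcan rose (602 and 1850 counts in tumours 1 and 2, against 4 and 4 in the normal tables, log2 fold change 7.29, SE 1.18, edgeR adjusted p = 0.0438). So did Msn, whose product moesin links CD44 to actin (4967 and 6456 counts against 154 and 173, log2 fold change 4.24, SE 0.71, adjusted p = 0.047). Stab2, the endothelial hyaluronan scavenger receptor gene, fell (2 and 1 counts against 933 and 1110), as did the hyaluronidase gene Hyal1 (122 and 198 counts against 873 and 923). The call of Hyal1 was lost without scaling beyond library size (adjusted p = 0.096, the highest of its alternatives, which begin at 0.000352), and 50.7% of its 31-base words are shared with other genes.

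Itgav, the alpha-v integrin gene and an osteopontin receptor subunit, was not called and stood at 663 and 442 CPM in tumours 1 and 2 and at 188 CPM in normal liver (log2 fold change 1.56, SE 0.71, edgeR adjusted p = 0.239). The subunit genes Itga4, Itga8 and Itga9, named after their values were seen, had fewer reads, with 21 and 1, 0 and 1, and 4 and 52 counts in tumours 1 and 2, against 36 and 48, 40 and 46, and 276 and 298 in the normal tables (not called, edgeR adjusted p = 0.426, 0.11 and 0.146). The hyaluronan synthase gene Has2, named after its values were seen, had 1 and 761 counts in tumours 1 and 2, against 0 and 0 in the normal tables. Tumour 2 alone thus held more than a trace of it.

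Relatives of the markers were examined next. Of 16 paralogues 12 were tested, 0 rose by edgeR, 1 fell, and the median log2 fold change was 2.05, against 0.19 over all genes tested. Without adjustment, 4 had p under 0.05 with higher and 2 with lower values in the tumours, and DESeq2 also called 4 and 2. Gpc4, a glypican gene of normal liver, fell to 169 and 269 counts in tumours 1 and 2, against 1935 and 2013 in the normal tables (log2 fold change -4.07, SE 0.54, edgeR adjusted p = 0.0321), a call lost without scaling beyond library size (adjusted p = 0.061, the highest of its alternatives, which begin at 1.46e-06).

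Among the relatives of Akr1b8, Akr1b10 had 244 and 110 counts in tumours 1 and 2, against 3 and 6 in the double heterozygous and wild type normal tables (log2 fold change 4.64, SE 1.39, edgeR adjusted p = 0.128). Akr1b7 had 95 and 3 counts in the tumours against 17 and 22, and its direction differed between the tumours. Akr1b3, the mouse aldose reductase gene, had 12 and 39 counts in the tumours against 1 and 39, so the normal tables disagreed about it, and 15.2% of its 31-base words are shared.

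Other progenitor and bile duct markers were also examined. Of 20 such genes 18 were tested, 3 rose and 0 fell by edgeR (at an unadjusted p under 0.05, 7 higher and 0 lower, and by DESeq2 6 higher and 0 lower). The median log2 fold change was 2.88, or 2.54 when a gene without counts in normal liver is set to the bound from the floor. Those that rose were the adhesion gene Ncam1 (3274 and 4480 counts in tumours 1 and 2, against 1 and 1 in the normal tables) and the duct keratin genes Krt7 (3500 and 3925 counts against 6 and 8) and Krt19 (9641 and 5757 counts against 43 and 46). Sox9, a transcription factor gene of ducts and progenitors, had 101 and 178 counts against 15 and 16 and was not called (log2 fold change 2.22, SE 1.07, edgeR adjusted p = 0.257). Some genes of this list, named after their values were seen, split between the tumours. The chloride channel gene Cftr had 466 and 7 counts in tumours 1 and 2, against 15 and 16, a split like that of Epcam. Aqp1 (23 and 2133 counts against 743 and 755) and Lgr5 (13 and 259 against 84 and 85) split the other way. These genes were not called. Of the 18 genes tested, both tumours lay above normal liver in 10 and below it in 3.

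Of the 14 oncofetal and tumour marker genes found in the tables, 9 were tested, and 1 rose while 0 fell by edgeR (4 higher and 0 lower at an unadjusted p under 0.05, 6 higher and 0 lower by DESeq2). Their median log2 fold change was 4.6. The gene that rose was Sox4, a transcription factor gene with 3741 and 1841 counts in tumours 1 and 2, against 2 and 2 in the normal tables, 54.7% of whose 31-base words are shared. Afp, the alpha-fetoprotein gene of fetal liver, had 19 and 85 counts in the tumours against 6 and 6 and was not called (edgeR adjusted p = 0.45).

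Markers of other cell types were counted in the same libraries, because several of the 10 genes are also expressed outside epithelia. The labelled tissue was checked first. Of 12 hepatocyte genes 11 fell and 0 rose (DESeq2 12 and 0), and their summed level was 170 and 161 CPM in tumours 1 and 2, against 214847 CPM in normal liver. Albumin (Alb) had 123 and 807 counts in the tumours against 1083426 and 1194814, and Tat, Cps1 and Cyp2e1, with the largest falls, had at most 18 counts in either tumour. The transcription factor gene Hnf4a, named after its values were seen, made up 156 and 107 CPM of the tumour sums, so little else of the list was left in the libraries labelled liver tumour. The call of Alb (edgeR adjusted p = 0.0479) was lost against either normal table alone (0.0558 for the double heterozygous and 0.0513 for the wild type table, in a range over its alternatives from 2.23e-29 to 0.0558).

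Leukocytes carry CD44, and macrophages also make osteopontin. The pan-leukocyte gene Ptprc had 35 and 2 counts in tumours 1 and 2, against 65 and 77 in the double heterozygous and wild type normal tables. The T cell gene Cd3e had 0 and 0 counts in the tumours against 23 and 35. Cd3d, Cd3g, Cd4, Cd8a and Cd8b1 were at 0 in both tumours and were not tested. Most of them were nearly silent in the normal tables as well. Cd4 had 13 and 12 counts there, Cd3g 2 and 2, Cd3d and Cd8a 1 and 1 each, and Cd8b1 0 and 0. The summed level of the 11 T cell and leukocyte genes was 4.04 and 0.859 CPM in tumours 1 and 2, against 16.4 CPM in normal liver. Lck, a T cell kinase gene named after its values were seen, stood at 0.606 and 0.59 CPM in the tumours against 0.658 CPM. Both tumour libraries carry the word Tcell in their descriptions. The part of leukocytes in the levels of Cd44 and Spp1 was not tested.

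The 12 macrophage genes summed to 445 and 86.0 CPM in tumours 1 and 2, against 242 CPM in normal liver. Of that, Cd14, named like the next genes after its values were seen, made up 382 and 80.2 CPM in the tumours, against 3.29 CPM. The lysozyme gene Lyz2, which shares 32.8% of its 31-base words with other genes, had 644 and 19 counts in tumours 1 and 2, against 174 and 225. The scavenger receptor gene Marco had 121 and 1 counts against 12 and 18, and Emr1 93 and 0 counts against 111 and 119. Tumour 1 held more of all 4 than tumour 2, and they were not called. The macrophage gene Cd68 went the other way between the tumours (30 and 65 counts against 21 and 23). Csf1r lay under normal liver in both (44 and 23 counts against 342 and 375). Cd68 and Csf1r were also named after their values were seen and were not called. By edgeR 0 of the 12 rose and 3 fell (1 and 7 without adjustment, and 1 and 7 by DESeq2). The Kupffer cell genes Clec4f, Cd5l and Cd163 fell, each with 0 counts in both tumours, though without scaling the calls of Cd5l and Cd163 were lost (adjusted p = 0.0537 and 0.0571, each the highest of its alternatives, which begin at 2.12e-08 and 6.15e-08). Among 10 genes of B cells, red cells and neutrophils, some of which express CD24, the sum was 1.68 and 1.88 CPM in the tumours against 55.4 CPM, and the haemoglobin genes Hbb-b1 and Hba-a1 fell to at most 1 count in a tumour (both calls were lost without scaling, at adjusted p of 0.0649 and 0.0619, the highest of their alternatives, which begin at 7.02e-07 and 5.02e-06). These haemoglobin genes held 23.9 and 25.9 CPM of the normal sum. The neutrophil genes S100a8 and S100a9, named after their values were seen, were not called, with 15 and 19 counts of S100a8 in tumours 1 and 2 against 2 and 5, and 9 and 14 counts of S100a9 against 8 and 9.

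The 8 endothelial genes summed to 0.808 and 1.4 CPM in tumours 1 and 2, against 299 CPM in normal liver, and 4 of them fell (7 lower without adjustment and 7 by DESeq2), led by Clec4g, Stab2 and Tie1, each with at most 2 counts in a tumour (that of Clec4g lost without scaling, at adjusted p = 0.0696, the highest of its alternatives, which begin at 4e-06). The 10 fibroblast and stellate cell genes summed to 4.85 CPM in tumour 1 and 730 CPM in tumour 2, against 234 CPM in normal liver. Tumour 2, in which Epcam and Prom1 were the lower of the tumours, was therefore the tumour with the higher fibroblast sum, led by Col1a2 and Col1a1 at 281 and 202 CPM (named after their values were seen), against 0.0674 and 2.02 CPM in tumour 1. The stellate cell gene Reln fell (0 and 3 counts in tumours 1 and 2, against 1040 and 1077). Not every gene of the list was high in tumour 2. The matrix proteoglycan gene Dcn had 19 and 154 counts in tumours 1 and 2, against 580 and 605 in the normal tables. Lum and the stellate cell gene Lrat had 0 counts in both tumours, against 38 and 39 and against 114 and 118. These 3 genes were named after their values were seen and were not called. By edgeR 0 of the 10 rose and 1 fell (0 and 4 without adjustment, 1 and 4 by DESeq2). The part of fibroblast transcripts in the difference between the tumours was not tested. Of 5 mesothelial genes 4 were tested, and 1 rose while 0 fell by edgeR (1 and 0 without adjustment and by DESeq2). Msln, the mesothelin gene, rose (8766 and 3601 counts in tumours 1 and 2, against 3 and 5). Wt1 (17 and 51 counts against 1 and 1), Upk3b (14 and 24 against 3 and 3) and Gpm6a were not called. Gpm6a was lower in both tumours, at 0.135 and 0.859 CPM against 1.1 CPM. Lrrn4 had 4 and 0 counts against 3 and 3 and was not tested. The genes other than Msln were named after their values were seen.

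**Figure D4:**
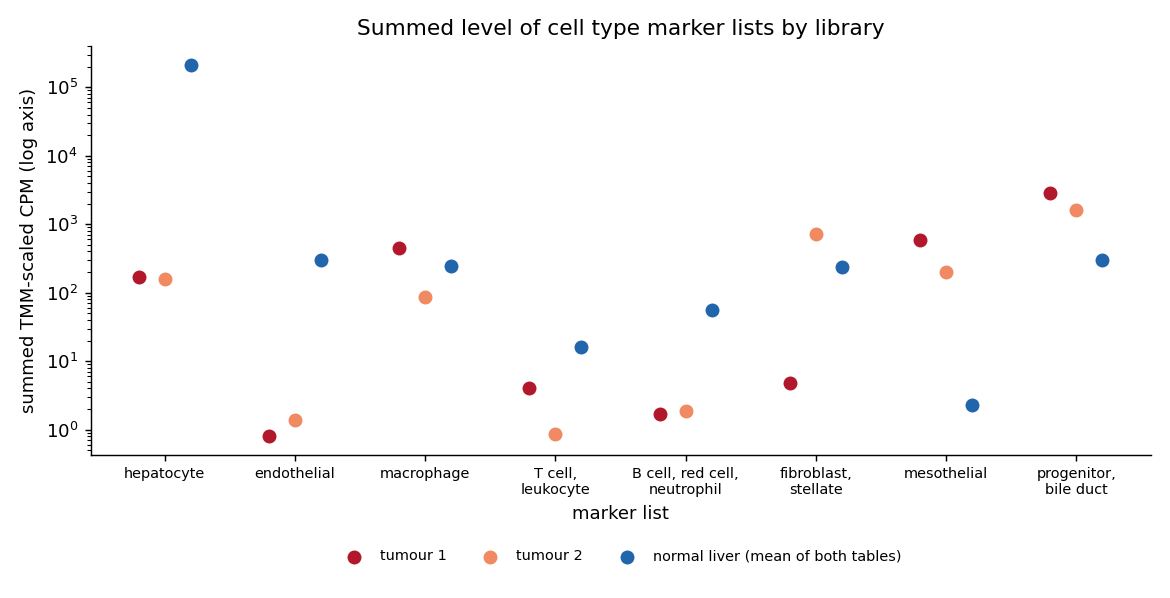
Summed TMM-scaled CPM (log axis) of 8 marker lists in tumour 1, tumour 2 and normal liver (mean of both tables). Hepatocyte and endothelial sums of both tumours lie far under that of normal liver, and the fibroblast sum is 4.85 CPM in tumour 1 and 730 CPM in tumour 2.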

How the data were processed

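Each library has 1 table of counts per gene symbol, deposited as whole numbers without normalization by the authors. The submitters' processing notes name build mm9 and the tools FastQC, Trimmomatic, TopHat2 2.0.10, HTSeq and DESeq2, without role or order. How reads were counted, and whether by strand, is not given in the sources used. The 5 rows that name no gene (58.8% to 76% of each table) were left out.

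The 2 tumours were compared with the rounded mean of both normal tables in edgeR 4.0.16 (R 4.3.3): TMM scaling, a filterByExpr filter (minimum count 10), the quasi-likelihood fit and test, and Benjamini-Hochberg adjustment over all genes tested. The fit has 1 residual degree of freedom, and its code was tested on simulated data. The SE was taken from the F statistic (size of the change over the root of F). Tumour 1 against tumour 2 used log2 ratios with a prior count of 2. DESeq2 1.42.0 was an alternative. Shared sequence is the percentage of a gene's 31-mers found in another gene of GENCODE M21 (GRCm38). The members, lists and the rule for named genes (all members, some fixed genes, and up to 3 called genes per list and direction) were chosen with earlier results of these data known. Without molecular identifiers, all intervals and floors are for counting error alone. A gene of the lists is not reported here by name.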

Additional observations from a re-analysis of the deposited data

How the results depend on the processing

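The 5 markers called higher kept their call under all 8 alternatives that keep a test, and 0 markers were called lower under any. For most markers, low counts in normal liver left little room for a lower call. Between 5 and 7 were called higher: 7 with both normal tables as separate libraries and with DESeq2, 5 under upper quartile scaling and 6 under each of the others. Prom1 passed under those 2 settings that gave 7 (adjusted p = 0.0392 and 0.000974, in a range up to 0.151). Over all genes, 322 were called higher and 751 lower, against 3058 and 3157 with the normal tables as separate libraries, 1641 and 1727 with DESeq2, 635 and 472 without scaling beyond library size, and 903 and 1383 without a filter on low counts. Leaving out scaling shifted log2 fold changes by a median of 1.37 and upper quartile scaling by 0.23. With the threshold at 2-fold in place of 4-fold, 6 markers were higher in tumour 1 than in tumour 2. Akr1b3, not called, changed sign against the double heterozygous table alone (3.46) and without scaling (0.79), against -0.59; the cause was not tested. With tumour 2 alone the log2 ratio of Epcam to normal liver was -3.9, and with tumour 1 alone 2.18; for Prom1 these were 3.58 and 7.01. With a single tumour these are values with no test. Without the filter, Gpc3 and Dlk1 had adjusted p of 0.69 and 0.776. No paired analysis was possible because the normal library is a single sample and the labels give no number that pairs it with a tumour. The small number of libraries, and the low counts of Prom1, Gpc3 and Dlk1 in normal liver, limit what can be resolved.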

Other observations

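Other surface molecules used as stem cell or tumour markers were also examined. Of 18 such genes, all tested, edgeR called 0 higher and 1 lower, beside 2.23% and 5.19% of all genes (5 higher and 3 lower at an unadjusted p under 0.05, 5 and 2 by DESeq2), and their median log2 fold change was 0.72. The gene that fell was Anpep, which encodes the aminopeptidase CD13 of the bile canaliculus, with 6 and 4 counts in tumours 1 and 2, against 3225 and 3415 in the double heterozygous and wild type normal tables (log2 fold change -10.18, SE 0.76, edgeR adjusted p = 0.0182). Some genes, named after their values were seen, differed sharply between the tumours. Aldh1a3, a retinaldehyde dehydrogenase gene, had 901 and 1 counts in tumours 1 and 2, against 1 and 1 in the normal tables. The adhesion receptor gene Icam1 had 89 and 2967 counts in tumours 1 and 2, against 131 and 146.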
